A study of Mus musculus with 9 samples.

Results

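The 10 genes described here encode the sensing and braking parts of 2 linked circuits that read the energy and nutrient state of a cell. They are Prkaa1, Prkab1, Prkab2, Prkag1 and Stk11 on the side of AMPK, and Sesn1, Sesn3, Ddit4, Tsc1 and Depdc5 on the side of mTORC1. They were chosen by symbol from the 16344 genes of the deposited table, and all 10 were found and passed the filter on low values. Their messenger RNA was measured by RNA-seq in wild-type mouse CD8 T cells, a killer lymphocyte, which came from spleen and lymph nodes of mice of unstated strain and age and had been switched on by way of CD3 and CD28. Samples of 100000 such cells were kept overnight in 1 of 3 conditions. The control group, NaCl, received 20 mM sodium chloride. The DAHB group received 20 mM DAHB, an abbreviation that the labels do not spell out. The DAHB+O group received DAHB, with no dose repeated in the labels, together with 10 nM oligomycin, an inhibitor of the mitochondrial ATP synthase. Each group had 3 libraries, and all carried 1 batch label. Oligomycin without DAHB was not analysed here, so any change in DAHB+O is a change on top of DAHB.

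AMPK is a kinase made of a catalytic alpha, a scaffolding beta and a nucleotide-binding gamma subunit, which is switched on when ATP runs low and ADP and AMP rise, provided that an upstream kinase such as LKB1 phosphorylates it. mTORC1 is the kinase complex that drives protein synthesis and growth when amino acids, growth factors and energy are at hand. The sestrins, REDD1, the TSC complex and GATOR1 restrain mTORC1, and AMPK acts against it through TSC2 and raptor. In T cells both circuits shape the choice between growth on activation and a more quiescent, memory-prone state. Most of this signalling runs through phosphorylation, which RNA-seq does not read, so the values below are message levels and not kinase activity.

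Library sizes, recovered from the deposited values, ran from 28146402 to 39207045 reads, and the smallest of the 90 values of the 10 genes rested on 176 reads. All values below are normalized counts, that is, read counts divided by the authors' size factor for each library. The labels do not tell whether replicates were different mice or cultures, so the p-values speak of the spread between these libraries, and that spread could be technical. The marker Cd8a lay at 16569 to 17207, 21212 to 22631 and 16166 to 16582 in NaCl, DAHB and DAHB+O, against 150 to 187, 211 to 227 and 205 to 251 for Cd4. Markers of other cells moved with the treatment. Summed over the 7 CD8 T cell markers, levels in the same order of groups were 90042 to 95409, 94991 to 99817 and 73414 to 78014. Over 5 of 6 B cell markers they were 7580 to 8108, 2679 to 2884 and 2000 to 2177, mostly Ighm. With DAHB 1 of these 5 rose, 3 fell and 1 did not pass, and Cd79b went from 424 to 427 up to 573 to 583. With oligomycin 4 fell and 1 did not pass. Over 7 of 7 dendritic cell markers the sums were 3062 to 3257, 8376 to 9267 and 9400 to 9954. Of these 7, 6 rose and 1 fell with DAHB, whereas 1 rose, 4 fell and 2 did not pass with oligomycin (median log2 -0.71), when Cd74 went from 3369 to 3863 up to 5823 to 6292. Over 5 of 6 monocyte markers the sums were 504 to 578, 976 to 1174 and 823 to 927, although with DAHB 2 rose and 3 fell (median log2 -1.20) and most of the sum was Cd68, at 294 to 337, 929 to 1099 and 565 to 625. Their part in the results below was not tested, and in bulk RNA fewer cells of a type and less RNA per cell cannot be told apart.

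The 10 genes went in different directions, and none changed by 2-fold. Each gene was tested with limma on log2 values over all 14169 genes that passed the filter, and a gene is said to rise or fall where its Benjamini-Hochberg adjusted p was under 0.05. In DAHB against NaCl 2 of the 10 genes rose (Prkaa1 and Sesn3), 4 fell (Prkab1, Stk11, Sesn1 and Depdc5) and 4 did not pass, where 73.9% of all genes passed, 35.5% upward and 38.4% downward. In DAHB+O against DAHB 2 rose (Prkaa1 and Prkab1), 5 fell (Prkab2, Stk11, Sesn1, Sesn3 and Ddit4) and 3 did not pass, against 62.6% of all genes passing, 33.1% upward and 29.5% downward. In DAHB+O against NaCl 2 rose (Prkaa1 and Sesn3), 6 fell (Prkab2, Stk11, Sesn1, Ddit4, Tsc1 and Depdc5) and 2 did not pass, against 74.2% of all genes passing, 36.5% upward and 37.7% downward. The shares that passed, 60.0%, 70.0% and 80.0%, therefore lay near the background of each comparison. The comparisons share libraries and are not independent of each other.

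The 3 libraries of 1 group lay wholly above or below those of the other for 7 of the 10 genes in DAHB against NaCl, 7 in DAHB+O against DAHB and 8 in DAHB+O against NaCl, where 75.6%, 67.6% and 78.7% of all genes did so. Over all genes, 18.7%, 8.91% and 20.0% changed by at least 2-fold. The median absolute log2 change of the 10 was 0.28, 0.22 and 0.46, against 0.42, 0.30 and 0.43 over all genes. The median signed log2 change was -0.18, -0.17 and -0.22, against -0.02, 0.02 and -0.01 over all genes. The plot of the 10 genes by library shows each value.

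**Figure D1:**
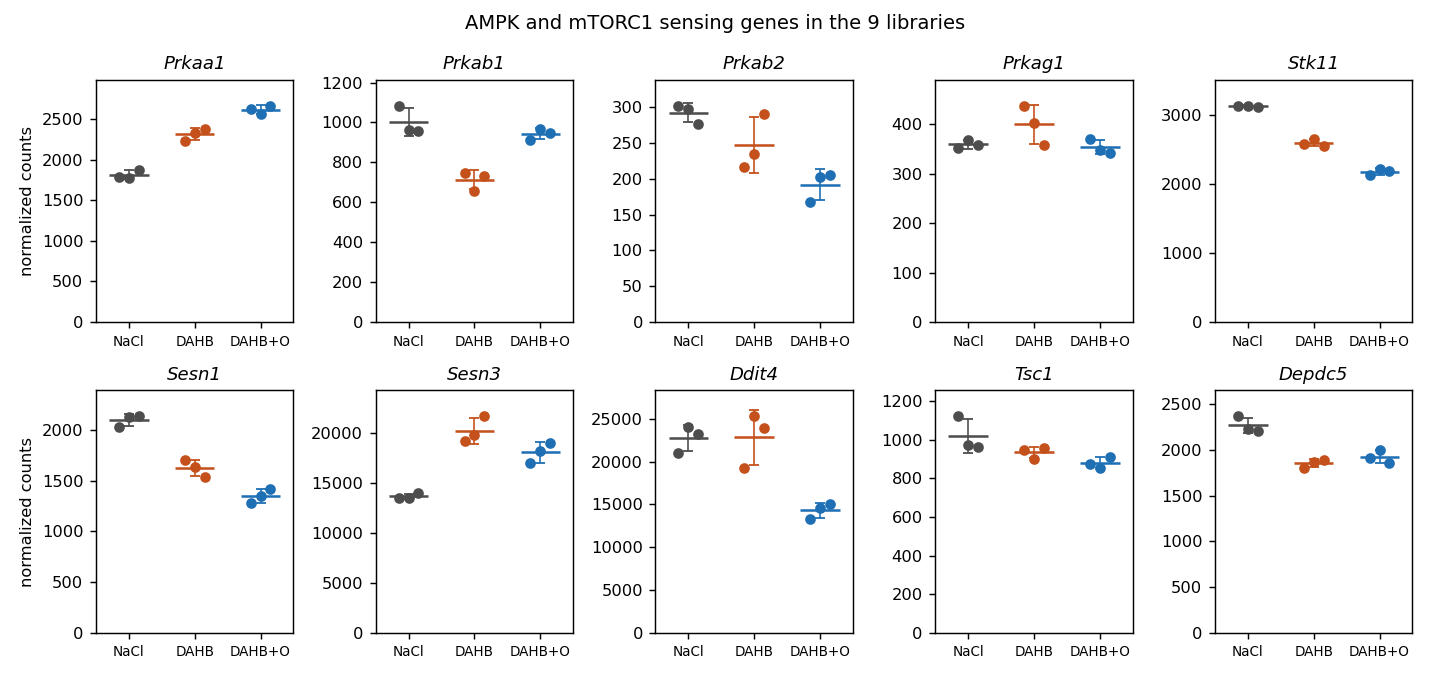
Normalized counts (vertical axis, from 0, scaled per gene) of the 10 genes in the 9 libraries of the NaCl, DAHB and DAHB+O groups. Points are libraries, the long line is the group mean and the bars are the SD of 3 libraries. Stk11 and Sesn1 step down across the groups, Prkaa1 steps up, Prkab1 dips in DAHB at 659 to 749, and Ddit4 is low in DAHB+O at 13292 to 15010.

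The stretch of DNA just upstream of each start site was read for 4 short motifs bound by stress and nutrient factors, of which HIF-1, ATF4 and FOXO are taken up again with their target genes further on. The motifs, searched on both strands of the 250 bases before each RefSeq start, were ACGTG, the core bound by hypoxia-inducible factors, CACGTG, the E-box bound by TFEB and MYC, which contains ACGTG, TGATGNAA, bound by ATF4 with a C/EBP partner, and GTAAACA, bound by FOXO factors. All 10 genes had a window in the RefSeq table of GRCm38.p6, in 11 entries. Ddit4 and Stk11 were the only ones with a match to any motif, and both matched the ACGTG core, which 16.6% of 32851 mouse windows of that length hold. The other shares were 6.02% for CACGTG, 3.45% for TGATGNAA and 3.17% for GTAAACA. Both matched windows are printed 5′ to 3′ on the gene's strand, with the core, or CACGT where it lies on the other strand, in capitals. That of Ddit4 is chr10:59951835-59952020 on the minus strand, 186 bases long because 64 bases that GENCODE places in an exon are left off, and its core begins 187 bases before the RefSeq start. That of Stk11 is chr10:80115545-80115794 on the plus strand, with cores that begin 49 and 12 bases before the start. A match is a description of these letters and not a binding site.
Ddit4: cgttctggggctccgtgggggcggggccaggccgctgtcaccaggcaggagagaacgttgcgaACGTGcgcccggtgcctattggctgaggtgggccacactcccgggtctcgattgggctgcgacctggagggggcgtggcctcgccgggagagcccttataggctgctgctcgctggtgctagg
Stk11: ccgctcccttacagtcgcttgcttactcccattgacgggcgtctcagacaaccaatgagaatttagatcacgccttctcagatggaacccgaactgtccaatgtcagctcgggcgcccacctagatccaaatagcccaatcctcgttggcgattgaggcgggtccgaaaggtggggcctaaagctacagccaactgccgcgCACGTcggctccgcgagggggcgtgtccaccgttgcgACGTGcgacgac

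Stk11 encodes LKB1, the kinase that phosphorylates and so licenses AMPK under energy stress (chromosome 10, 80115803 to 80130682, plus strand, mm10, GENCODE M21, the source of all gene coordinates here). It stood at 3131, 3132 and 3113 in NaCl, at 2572, 2651 and 2556 in DAHB and at 2133, 2222 and 2181 in DAHB+O. The libraries of each group kept within a narrow band and no 2 groups overlapped. Stk11 fell by 0.27 on the log2 scale in DAHB against NaCl (SE 0.0369, limma adjusted p = 8.44e-06) and by a further 0.25 with oligomycin (limma adjusted p = 2.75e-05), which left it at 69.7% of NaCl (limma adjusted p = 5.27e-09). Under quantile normalization the first step was -0.11 (adjusted p = 0.0116). Both steps were close to the middle of all genes, since 66.0% and 57.1% of genes changed by more. Cbarp, a gene on the opposite strand that is also in the table, covers 232 of its exon bases, and no source used here says whether counting used strand.

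The kinases and helpers around LKB1 took other courses. Of 7 such genes 1 rose, 2 fell and 4 did not pass in DAHB against NaCl, and 4 rose and 3 did not pass in DAHB+O against DAHB, with a median log2 change of -0.01 and then 0.21. Under quantile normalization 3 of the 7 rose with DAHB. Of all genes 73.9% passed in DAHB against NaCl and 62.6% in DAHB+O against DAHB. Camkk2, the calcium-driven kinase that can phosphorylate AMPK without LKB1, rose in both steps, from 766 ± 58.2 to 1036 ± 35.2 and then 1384 ± 31.9 (SD, n = 3, limma adjusted p = 5.2e-06 and 1.31e-05). Cab39, the scaffold MO25 alpha that holds LKB1 active, fell from 12530 ± 210.0 to 10596 ± 361 with DAHB and returned to 12252 ± 71.6 with oligomycin (SD, n = 3, limma adjusted p = 1.52e-05 and 9.44e-05).

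Prkaa1 encodes the catalytic subunit alpha 1, the main AMPK catalytic subunit of T cells (chromosome 15, 5143861 to 5181899, plus strand). It was measured at 1780, 1778 and 1877 in NaCl, 2231, 2325 and 2378 in DAHB and 2627, 2557 and 2663 in DAHB+O. The 3 groups formed 3 separate steps upward. The rise was 0.35 on the log2 scale with DAHB (SE 0.0417, limma adjusted p = 1.86e-06) and 0.18 more with oligomycin (limma adjusted p = 0.00163), to 144% of NaCl. The antisense gene Gm15938, which is not in the table, covers 3826 of the 4655 exon bases of Prkaa1, so reads from it could be counted here if strand was ignored.

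Prkaa2, which encodes the other catalytic subunit, alpha 2, known best from muscle and heart, lay at 2.57 ± 1.4 in NaCl, 68.7 ± 8.2 in DAHB and 93.2 ± 7.95 in DAHB+O (SD, n = 3). It rose with DAHB (log2 4.37 on the scale with 1 added, limma adjusted p = 2.3e-09), while its second step did not pass (log2 0.44, adjusted p = 0.198), although these groups did not overlap and it passed with a pseudocount of 10, with the 6 libraries alone and with edgeR. Per kilobase of exon, the scale on which genes can be set beside each other, the level of Prkaa1 was 389, 496 and 562 normalized counts in NaCl, DAHB and DAHB+O and that of Prkaa2 was 0.323, 8.61 and 11.7. Prkaa1 thus made up 99.9%, 98.3% and 98.0% of alpha messages.

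The beta subunits hold the complex together and carry a domain that binds glycogen, and their messages moved in opposite directions with oligomycin. Prkab1, for beta 1 (chromosome 5, 116013586 to 116024508, minus strand), lay at 1084, 963 and 959 in NaCl, 749, 659 and 732 in DAHB and 914, 968 and 946 in DAHB+O. It dipped in all DAHB libraries, below every library of both other groups, which overlapped. The fall with DAHB was 0.49 on the log2 scale (SE 0.0636, limma adjusted p = 4.86e-06), and oligomycin raised it by 0.40 (limma adjusted p = 5.55e-05), which undid 82.4% of the log2 change. DAHB+O against NaCl did not pass (log2 -0.09, 95% interval -0.22 to 0.05, limma adjusted p = 0.233). Reads of the antisense gene Gm14508 could add to it, over 1389 exon bases.

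Prkab2, for beta 2 (chromosome 3, 97658193 to 97673812, plus strand), lay at 302, 297 and 277 in NaCl, 217, 234 and 291 in DAHB and 167, 203 and 205 in DAHB+O. The DAHB libraries spread widely, with the third inside the NaCl range, while DAHB+O lay below both other groups. Prkab2 did not pass in DAHB against NaCl (log2 -0.25, limma adjusted p = 0.0606), but did under quantile normalization (log2 -0.46, adjusted p = 0.00374), without DAHB replicate 3 (log2 -0.37, adjusted p = 0.00682) and without DAHB+O replicate 1 (adjusted p = 0.0465). It fell by 0.36 with oligomycin (limma adjusted p = 0.0121), a call that was lost without DAHB replicate 3 (adjusted p = 0.0709) or without DAHB+O replicate 1 (adjusted p = 0.0689). It ended at 65.5% of NaCl (limma adjusted p = 1.79e-04). Gm17651, on the opposite strand and not in the table, covers 782 of its exon bases.

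Per kilobase, Prkab2 made up 14.4%, 15.6% and 14.8% of beta messages in the NaCl libraries, 14.8%, 17.6% and 19.3% in DAHB and 9.91%, 11.2% and 11.5% in DAHB+O. The share was lower in every DAHB+O library than in any other library (a difference of -6.36 percentage points from DAHB). An exact two-sided permutation test gave p = 0.1, the smallest that 3 libraries against 3 allow, or 0.129 after Benjamini-Hochberg adjustment over 18 such share tests.

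Prkag1, for gamma 1, the subunit that binds AMP, ADP and ATP (chromosome 15, 98812797 to 98831521, minus strand), passed in no comparison. It lay at 352, 369 and 358 in NaCl, 438, 403 and 359 in DAHB and 371, 349 and 343 in DAHB+O, and all 3 groups overlapped. The log2 differences were 0.15 with DAHB, -0.17 with oligomycin and -0.02 for DAHB+O against NaCl (limma adjusted p = 0.103, 0.0745 and 0.818). The first of these passed under TMM scaling and edgeR (adjusted p = 0.0463 and 0.0368), and without DAHB replicate 3 it was also called (adjusted p = 0.0167). The second passed without that same library too (adjusted p = 0.0128), and under quantile normalization and edgeR (adjusted p = 0.0151 and 0.0436). The antisense gene B130046B21Rik overlaps 1598 of its exon bases. Prkag2, for gamma 2, rose with oligomycin from 533 ± 45.3 to 622 ± 40.2 (SD, n = 3, limma adjusted p = 0.0129), a call lost under quantile normalization, without DAHB replicate 3 and without DAHB+O replicate 3. Prkag1 held 69.2% ± 0.46 of gamma messages per kilobase in NaCl, 69.1% ± 0.72 in DAHB and 62.9% ± 2.05 in DAHB+O (SD, n = 3), and the exact permutation p for DAHB+O against DAHB was 0.1, or 0.129 adjusted over the share tests.

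**Figure D2:**
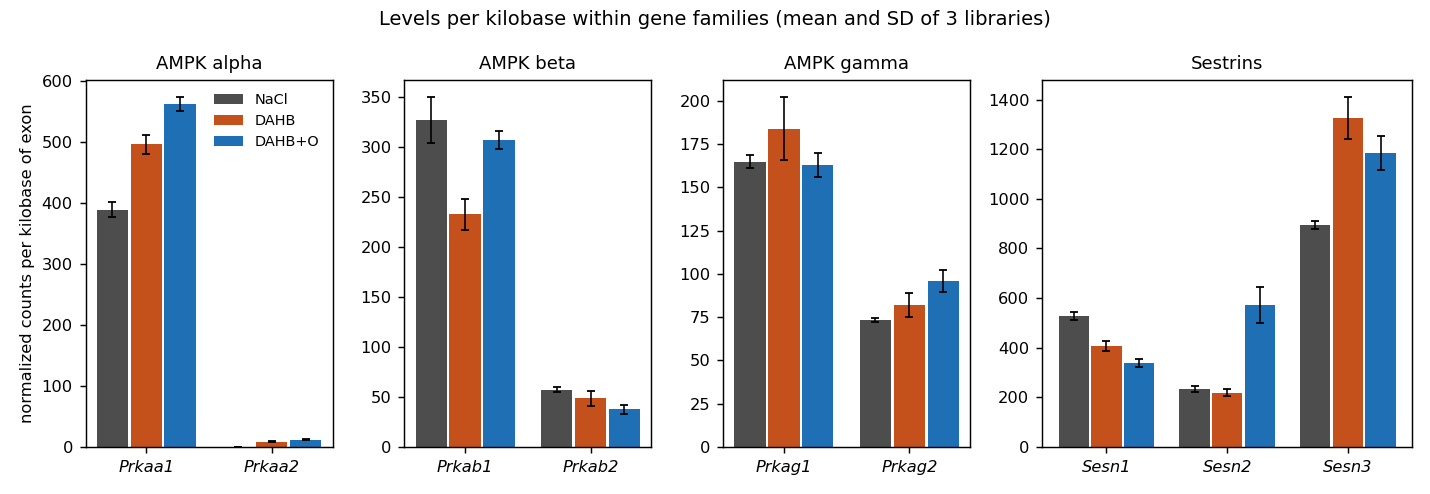
Normalized counts per kilobase of exon (vertical axis, from 0) for the AMPK alpha, beta and gamma genes and the sestrins. Bars are the means of the NaCl, DAHB and DAHB+O groups and whiskers the SD of 3 libraries. Prkaa1 far exceeds Prkaa2 in all groups, and Sesn2 exceeds Sesn1 only in DAHB+O, at 571 against 338.

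The sestrins are stress-induced proteins that hold back mTORC1 through the GATOR complexes, and sestrin 2 is known as a leucine sensor. The 3 genes each took a different course. Sesn1 (chromosome 10, 41809935 to 41908424, plus strand) read 2031, 2134 and 2135 in NaCl, 1700, 1632 and 1539 in DAHB and 1278, 1347 and 1415 in DAHB+O. Its groups descended without overlap. It fell by 0.37 on the log2 scale with DAHB (SE 0.0507, limma adjusted p = 8.06e-06) and by a further 0.27 with oligomycin (limma adjusted p = 2.77e-04), to 64.1% of NaCl. Under quantile normalization the first step was -0.19 (adjusted p = 0.00289).

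Sesn3 (chromosome 9, 14275067 to 14333101, plus strand), a well-known FOXO target, read 13547, 13495 and 13962 in NaCl, 19235, 19775 and 21682 in DAHB and 16964, 18249 and 19043 in DAHB+O. Every DAHB and DAHB+O library lay above every NaCl library, and DAHB+O lay just below DAHB. It rose 1.48-fold with DAHB (log2 0.56, SE 0.0493, limma adjusted p = 5.93e-08), the largest change among the 10 genes in that comparison, and 38.1% of all genes changed by more. With oligomycin it fell by 0.16 (limma adjusted p = 0.0101), which undid 28.6% of the log2 change. DAHB+O stayed 1.32-fold above NaCl (log2 0.40, or 0.63 under quantile normalization, limma adjusted p = 2.52e-06 and 2.53e-08). The fall with oligomycin is fragile, since quantile normalization turned it to 0.05 (adjusted p = 0.382) and leaving out DAHB+O replicate 1 gave an adjusted p of 0.0631.

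Sesn2, which is not among the 10, did not pass with DAHB (809 ± 37.5 in NaCl and 758 ± 48.5 in DAHB) and then rose 2.6-fold with oligomycin to 1984 ± 256 (SD, n = 3, log2 1.38, limma adjusted p = 1.06e-09). Per kilobase the mean shares of the sestrin messages thus differed between the groups in these libraries. Sesn3 held 54.1% ± 0.658, 67.9% ± 2.43 and 56.6% ± 2.94 in NaCl, DAHB and DAHB+O, Sesn1 held 31.9% ± 0.66, 20.9% ± 1.58 and 16.2% ± 0.706, and Sesn2 held 14.1% ± 0.785, 11.2% ± 0.914 and 27.3% ± 3.65 (SD, n = 3). In exact two-sided permutation tests 8 of the 9 pairwise sestrin differences reached the smallest possible p of 0.1 (0.129 after adjustment over the 18 share tests), the exception being Sesn3 in DAHB+O against NaCl (p = 0.4). Sesn3 has 15269 exon bases, and reads per kilobase assume that they are evenly covered.

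Ddit4 encodes REDD1, a short-lived inhibitor of mTORC1 that acts through the TSC complex and is known to be induced by hypoxia, glucocorticoids and the integrated stress response (chromosome 10, 59949669 to 59951834, minus strand). It read 21050, 24023 and 23226 in NaCl, 19207, 25290 and 23978 in DAHB and 13292, 14592 and 15010 in DAHB+O. The NaCl values lay inside the DAHB range, and all 3 DAHB+O libraries lay below both. In DAHB against NaCl Ddit4 stood at 99.7% (log2 -0.00, 95% interval -0.18 to 0.17, limma adjusted p = 0.966), and its sign varied with the settings. With oligomycin it fell 1.59-fold (log2 -0.67, SE 0.0818, limma adjusted p = 4.54e-06), the largest change among the 10 genes in that comparison, with 19.9% of all genes changing by more. It was also the most abundant of the 10 per kilobase, at 12972, 13006 and 8147 in the 3 groups, against 895, 1325 and 1184 for Sesn3.

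Tsc1 and Depdc5 encode parts of the 2 brakes on which these signals converge. Tsc1, for hamartin, the subunit that stabilizes TSC2 (chromosome 2, 28641228 to 28691167, plus strand), read 1120, 972 and 961 in NaCl, 947, 902 and 954 in DAHB and 875, 855 and 911 in DAHB+O. The levels drifted down, with DAHB just below NaCl and overlapping DAHB+O. Neither single step passed (log2 -0.12 and -0.09, limma adjusted p = 0.0886 and 0.237), while DAHB+O against NaCl did, at 86.7% (log2 -0.21, limma adjusted p = 0.00682). NaCl replicate 1, at 1120, stood above the other NaCl libraries. The step from NaCl to DAHB was called without NaCl replicate 3 (limma adjusted p = 0.0497). With 1 library left out that step ran from log2 -0.16 to -0.05 (limma adjusted p up to 0.451), and over the other settings from -0.12 to -0.01. DAHB+O against NaCl ran from -0.25 to -0.14 with 1 library left out (limma adjusted p up to 0.0462). Tsc2, the partner of Tsc1 and the part that switches off the GTPase Rheb, instead rose with oligomycin from 2132 ± 62.6 to 2444 ± 63.8 (SD, n = 3, limma adjusted p = 5.2e-04).

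Depdc5, a subunit of GATOR1, which switches off the Rag GTPases when amino acids are short (chromosome 5, 32863701 to 32994236, plus strand), read 2366, 2227 and 2211 in NaCl, 1805, 1864 and 1893 in DAHB and 1906, 2003 and 1862 in DAHB+O. Both treated groups lay below NaCl and overlapped each other. It fell by 0.29 with DAHB (SE 0.0444, limma adjusted p = 2.65e-05), or -0.12 under quantile normalization (adjusted p = 0.0301), and was not called with oligomycin (log2 0.05, limma adjusted p = 0.315). DAHB+O stayed at 84.8% of NaCl (limma adjusted p = 1.85e-04), a call lost under quantile normalization (adjusted p = 0.163). Of the other GATOR1 genes, Nprl3 did not pass with DAHB (log2 0.03, adjusted p = 0.728) and rose with oligomycin (log2 0.41, limma adjusted p = 4.1e-05). Nprl2 passed in neither step (log2 -0.06 and -0.10, limma adjusted p = 0.377 and 0.145) and was lower in DAHB+O than in NaCl (log2 -0.15, limma adjusted p = 0.0222), a call lost without NaCl replicate 1, DAHB+O replicate 1 or DAHB+O replicate 3. The plot of changes with their intervals sets the 10 genes beside each other.

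**Figure D3:**
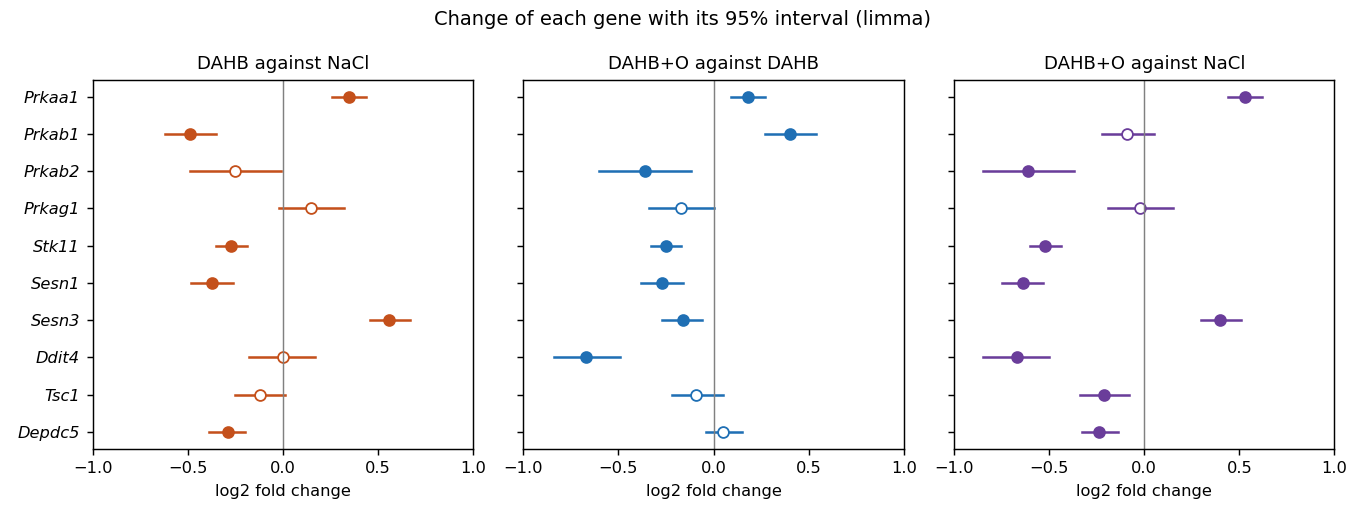
Log2 fold change (horizontal axis) of the 10 genes in the 3 comparisons, with the 95% interval from limma. Filled points passed at an adjusted p under 0.05 and open points did not. Prkaa1 is right of 0 and Stk11 and Sesn1 left of 0 in all 3 panels, whereas Prkab1 lies at -0.49 in the first and 0.40 in the second.

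Several of the 10 genes are textbook targets of stress-responsive transcription factors, and other targets of those factors give the setting. Among 8 targets of HIF-1, the factor stabilized when oxygen is low, 4 rose, 1 fell and 3 did not pass in DAHB against NaCl (median log2 0.14). All 8 fell in DAHB+O against DAHB (median log2 -1.71), in the same comparison as Ddit4, and all 8 fell in DAHB+O against NaCl (median log2 -1.40). The medians over all genes were -0.02, 0.02 and -0.01. Of all genes 35.5% rose and 38.4% fell with DAHB, and 33.1% rose and 29.5% fell in DAHB+O against DAHB. In DAHB+O against NaCl 36.5% rose and 37.7% fell. These shares are the background for the other factor lists below as well. All these lists were chosen with earlier results of these data known. With oligomycin, Egln3, a prolyl hydroxylase that HIF-1 induces, fell from 16549 ± 2589 to 2449 ± 246, and Bnip3, a mitophagy receptor, fell from 7424 ± 838 to 2156 ± 212 (SD, n = 3, limma adjusted p = 9.92e-12 and 5.28e-11). Vegfa, a growth factor for blood vessels, was the 1 target that fell with DAHB (log2 -0.63, limma adjusted p = 3.06e-04). It fell by 0.45 more on the log2 scale with oligomycin, where the DAHB and DAHB+O libraries overlapped (limma adjusted p = 0.00557).

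ATF4 and its targets, the genes of the integrated stress response, made a different pattern. Of 9 genes 6 fell and 3 did not pass with DAHB (median log2 -1.28), and 7 rose and 2 fell with oligomycin (median log2 1.49). Ddit3, the stress factor CHOP, went from 406 ± 36.7 to 157 ± 9.54 with DAHB and 2014 ± 76.4 with oligomycin, and Asns, asparagine synthetase, from 3246 ± 202 to 1338 ± 55.1 and 8878 ± 480.0 (SD, n = 3). Sesn2, an ATF4 target, rose in the comparison in which these rose, while Ddit4, which ATF4 also induces, fell there. What share either factor has in the level of Ddit4 was not tested.

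The factors known for the other sestrins gave mixed pictures. Of 12 FOXO factors and targets 6 rose and 6 fell with DAHB (median log2 -0.09), the comparison in which Sesn3 rose and Sesn1 fell. With oligomycin 1 rose, 9 fell and 2 did not pass (median log2 -0.45). Foxo1 itself rose with DAHB and fell with oligomycin, from 9689 ± 432 to 15115 ± 964 and back to 9285 ± 547 (SD, n = 3, limma adjusted p = 3.04e-08 and 2.47e-08). Klf2, a quiescence factor, rose in both steps (log2 1.43 and 0.28, limma adjusted p = 3.11e-10 and 0.00586), and Cdkn1b, a cell cycle inhibitor, fell with DAHB (log2 -1.45, limma adjusted p = 7.22e-11).

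Of 9 targets of p53, which induces Sesn1 and Sesn2, 4 rose, 4 fell and 1 did not pass with DAHB (median log2 -0.07), and 5 rose, 1 fell and 3 did not pass with oligomycin (median log2 0.19). Cdkn1a, the cell cycle inhibitor p21, rose with DAHB and fell with oligomycin (log2 0.72 and -0.79, limma adjusted p = 6.08e-08 and 4.33e-08), and Bbc3, for the death protein PUMA, did the reverse (log2 -0.89 and 0.86, limma adjusted p = 1.2e-08 and 3.85e-08). Of 5 glucocorticoid targets 2 rose, 2 fell and 1 did not pass in each of these comparisons. Fkbp5, a chaperone of the glucocorticoid receptor, and Tsc22d3, for GILZ, moved oppositely (log2 0.83 and -1.20 with DAHB, then -0.77 and 0.95, limma adjusted p from 8.05e-12 to 3.35e-10).

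**Figure D4:**
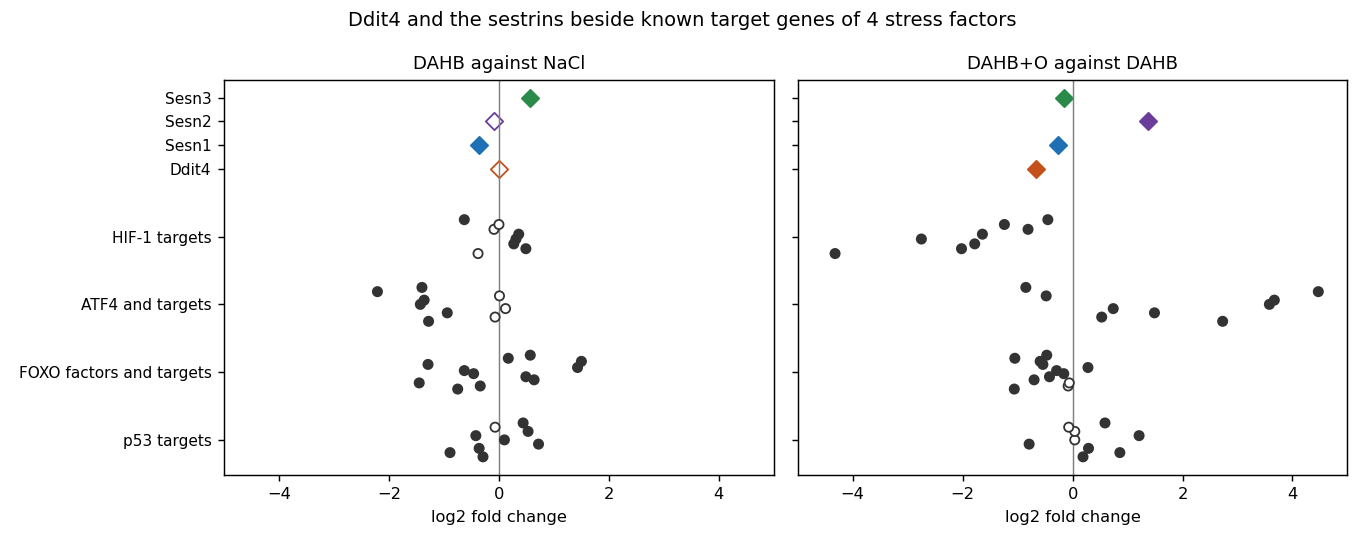
Log2 fold change (horizontal axis) of Ddit4 and the sestrins (diamonds) beside known targets of 4 stress factors (circles, 1 per gene), for DAHB against NaCl and DAHB+O against DAHB. Filled symbols passed limma at an adjusted p under 0.05. In the second panel all 8 HIF-1 targets and Ddit4 lie left of 0, and 7 of 9 genes of the ATF4 list and Sesn2 lie right of 0.

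Around the 10 genes, 59 other genes of both circuits were tested. With DAHB 14 rose, 23 fell and 22 did not pass, with oligomycin 21 rose, 14 fell and 24 did not pass, and in DAHB+O against NaCl 23 rose, 23 fell and 13 did not pass. The shares that passed were 62.7%, 59.3% and 78.0%, against 73.9%, 62.6% and 74.2% of all genes. Of all genes 35.5% rose and 38.4% fell with DAHB, and 33.1% rose and 29.5% fell with oligomycin. These shares are also the background for the smaller lists that follow. Some genes stand in more than 1 of these lists, so the counts of the lists are not independent of each other. The mTORC1 subunits themselves fell with DAHB in 4 of 5 cases (median log2 -0.50, or -0.33 under quantile normalization). Mlst8 fell by 0.81, Akt1s1 by 0.65 and Mtor, the kinase, by 0.38 on the log2 scale (limma adjusted p = 1.78e-07, 1.1e-07 and 3e-05). Deptor was the fifth and rose by 0.34 (limma adjusted p = 0.0177), a call lost without NaCl replicate 1, without DAHB replicate 1 and under quantile normalization, which also turned its sign. With oligomycin it rose again, by 0.85 (limma adjusted p = 1.92e-05), 1 subunit fell and 3 did not pass.

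Of the 4 other genes of the TSC complex and Rheb, 1 rose, 1 fell and 2 did not pass with DAHB. Rheb, the GTPase that turns mTORC1 on, fell from 1658 ± 62.3 to 970 ± 49.1 and returned in part to 1243 ± 26.9 with oligomycin (SD, n = 3, limma adjusted p = 2.12e-09 and 1.78e-05). Tbc1d7, the third TSC subunit, did the opposite, from 596 ± 36.5 to 927 ± 48.1 and 734 ± 20.9 (SD, n = 3, limma adjusted p = 1.56e-07 and 1.94e-04). Among 3 other stress and amino acid sensors, the arginine sensor Castor1, listed in the table as Gatsl3, rose 4.04-fold with DAHB and then fell 2.47-fold with oligomycin ( limma adjusted p = 3.29e-12 and 7.96e-10). Castor2, listed as Gatsl2, took the same course, from 2153 ± 98.6 to 5144 ± 498 and 2725 ± 114 (SD, n = 3).

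Of 13 genes for the Rag GTPases, Ragulator and the folliculin complex, 3 rose, 5 fell and 5 did not pass with DAHB, and 2 rose, 4 fell and 7 did not pass with oligomycin. Under quantile normalization 6 rose and 4 fell with DAHB. Rraga, for RagA, the GTPase on which GATOR1 acts, fell in both steps, from 3307 ± 104 to 2636 ± 49.3 and 1632 ± 52.9 (SD, n = 3, limma adjusted p = 3.52e-06 and 2.03e-09). Flcn, for folliculin, fell 2.07-fold with DAHB (limma adjusted p = 1.87e-08), and Lamtor1, which anchors Ragulator to the lysosome, fell with oligomycin (log2 -0.43, limma adjusted p = 7.11e-07). Of 5 GATOR1 and KICSTOR genes other than Depdc5, 1 fell and 4 did not pass with DAHB. That gene, Itfg2, fell by 0.38 and then rose by 0.52 (limma adjusted p = 3.16e-04 and 2.62e-05). Of 5 GATOR2 genes Mios and Wdr59 were called lower with DAHB, both by small amounts (log2 -0.21 and -0.11, limma adjusted p = 0.0336 and 0.0291). Under TMM, quantile normalization, edgeR and DESeq2 neither was called. With oligomycin 2 of the 5 rose, 1 fell and 2 did not pass. Mios then rose by 0.50 (limma adjusted p = 9.96e-05) and ended above NaCl (log2 0.29, limma adjusted p = 0.00598).

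Downstream, 6 of 9 AMPK substrate genes fell with DAHB, 1 rose and 2 did not pass (median log2 -0.45). Under quantile normalization 6 fell and 3 rose (median log2 -0.29). Without that normalization, 38.4% of all genes fell and 35.5% rose with DAHB. Ulk1, the kinase that starts autophagy, fell in both steps (1975 ± 49.8, 1273 ± 41.6 and 971 ± 42.7 in NaCl, DAHB and DAHB+O, SD, n = 3, limma adjusted p = 1.16e-08 and 4.73e-06). Acacb, the acetyl-CoA carboxylase that controls fat oxidation, was the gene that rose, by 1.79 on the log2 scale from 57.4 ± 8.68 in NaCl (SD, n = 3, limma adjusted p = 7.06e-09). Of 9 mTORC1 substrate genes 4 rose, 4 fell and 1 did not pass with DAHB. Eif4ebp1, the translation repressor 4E-BP1, fell by 0.59 and then rose by 0.52 on the log2 scale (limma adjusted p = 6.68e-09 and 5.43e-08). Grb10, an adaptor that dampens insulin signalling, rose from 47.9 ± 5.0 to 239 ± 25.8 and 443 ± 5.46 (SD, n = 3, limma adjusted p = 6.85e-11 and 4.42e-06), and Lpin1, for lipin 1, fell from 3049 ± 143 to 1690 ± 290.0 and 994 ± 31.1 (SD, n = 3, limma adjusted p = 4.02e-07 and 3.33e-06).

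Genes whose 9 log2 values, centred on their own mean, lay closest to those of each of the 10 were also looked up, as a description over libraries that fall into 3 groups. Golga2 and Slu7 lay nearest Stk11, at a root mean square distance of 0.0204 and 0.0222 on the log2 scale, against 0.213 for Stk11's own spread. Rbms2 and Txndc16 lay nearest Prkaa1 (0.0317 and 0.0323), Myo5a nearest Prkab1 (0.0412), Plxnb1 nearest Prkab2 (0.0843) and Ippk nearest Prkag1 (0.0406). Usp38 and Mospd3 lay nearest Sesn1 (0.0286 and 0.0379), and Fndc9 and Dnase2a nearest Sesn3 (0.033 and 0.0393). The second nearest to Ddit4 was Ccni (0.061), which read 19475, 18954 and 12637 in NaCl, DAHB and DAHB+O. Gbf1 lay nearest Tsc1 (0.0393) and Bcor nearest Depdc5 (0.0306). None of the nearest genes was another of the 10. Only the 2 nearest of all tested genes were looked up for each, so this does not tell whether the 10 moved together.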

How the data were processed

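Poly(A) RNA-seq of 9 mouse libraries was deposited as 1 table of normalized counts, here the unit signal. The deposited signal is read counts that the authors divided by a size factor per library, as read from the values: 100.0% of values in each column were whole multiples of 1 step within 0.001 reads. Per the submitters' processing notes, HTSeq 0.9.1, STAR 2.4, Trim Galore 0.4.5, DESeq2 and Picard were used with build mm10. The annotation, strand setting and gene filter were not given in the sources used here. All 9 sample columns were used. 1 blank cell, in Slc7a5, was left out.

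Tests ran on log2(value + 1), with a pseudocount of 1, so fold changes of weak genes are understated. Genes with a mean of at least 10 were tested with limma 3.58.1 (R 4.3.3), 1 mean per group, a variance trend and no block, two-sided, with Benjamini-Hochberg adjustment over all 14169 genes. Count tests on recovered reads were alternatives. With edgeR 4.0.16 the calls were 5333 up and 5173 down, and with DESeq2 1.42.0 4974 up and 5105 down, in DAHB against NaCl, 4627 and 4417 and then 4327 and 4115 in DAHB+O against DAHB, and 5373 and 5188 and then 5058 and 5135 in DAHB+O against NaCl. Also tried were pseudocounts of 0.5 and 10, filters at a mean of 50 and at none, the 6 libraries compared alone, TMM, quantile normalization, a replicate block and leaving out each library.

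The 10 genes and all lists were chosen with earlier results of these data known. Of each list up to 4 genes are named, the 2 with the smallest p in DAHB against NaCl and the 2 in DAHB+O against DAHB, and a few of these are not reported here. Nearest genes were the 2 at the smallest root mean square distance. Promoter windows are RefSeq's for GRCm38.p6, and coordinates and exon lengths are GENCODE M21's.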

Additional observations from a re-analysis of the deposited data

How the results depend on the processing

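Over 570 combinations of 1 of the 10 genes, a comparison and another setting, 546 kept their direction and their side of the threshold, 11 passed where the first fit did not, 4 no longer passed and 9 changed sign, and the cause was not tested. The difference of Ddit4 in DAHB against NaCl, near 0, turned to 0.03 under TMM, 0.04 with edgeR and 0.02 with DESeq2, and ranged from -0.08 to 0.12 with 1 library left out. Sesn3 in DAHB+O against DAHB turned to 0.05 under quantile normalization. Prkag1 in DAHB+O against NaCl turned to 0.00 with edgeR and ranged from -0.05 to 0.00 with 1 library left out. The count of genes among the 10 that fell in DAHB+O against DAHB ran from 3 to 5 with 1 library left out, the 3 without DAHB+O replicate 1. Same-numbered libraries deviated together only weakly, with r from 0.027 to 0.16 over 9 pairs and not every r over 0.1, so the numbers were not taken to pair the samples, although in 18 of 18 combinations a library lay closest to its own number in another group. The replicate block moved 1 call among the 10, Prkab2 in DAHB against NaCl (adjusted p = 0.0427), and gave 5129 genes higher and 5554 lower there, 4826 and 4319 in DAHB+O against DAHB and 5274 and 5444 in DAHB+O against NaCl. Tsc1 passed in DAHB against NaCl without NaCl replicate 3 (adjusted p = 0.0497), while its highest adjusted p there with 1 library left out was 0.451. The 10 genes rested on at least 176 reads in each library, while Prkaa2 in NaCl, at a mean of 2.57 normalized counts, is limited by depth.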
